A study of Homo sapiens with 18 samples.

Results

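The regions described here gained an ATAC-seq peak in both K562 lines that carry BASP1. A region was a member when it held an ATAC-seq peak in all 3 B-K562 and all 3 G-K562 libraries and in none of the 3 V-K562 libraries, after the intervals of the 9 libraries had been merged wherever they overlapped. Of 85549 merged regions, 217 were members. A further 632 regions had a peak in every B-K562 library alone, 1495 in every G-K562 library alone, 1525 in every V-K562 library alone, and 26984 in all 9 libraries.

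K562 is a human erythroleukemia cell line from chronic myelogenous leukemia in blast crisis. All 3 derivatives were stably transfected pools kept under G-418: V-K562 control cells, B-K562 cells expressing wtBASP1, and G-K562 cells expressing BASP1-G2A, a form that cannot be myristoylated at its N-terminus. Each line gave 3 culture replicates for RNA-seq and 3 for ATAC-seq, and the cells for ATAC-seq were treated with DNase before harvest in every group. As each line is a pool, a value is the mean of a mixed population. The replicates are cultures of the same pool, so differences between pools cannot be told apart from those due to the BASP1 form they carry.

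ATAC-seq reads out where a transposase can reach the DNA, and its peaks lie at promoters, enhancers and sites held open by factors such as CTCF, the insulator protein that anchors chromatin loops. BASP1 is a transcriptional cofactor that binds the zinc finger protein WT1 and turns it from an activator into a repressor, and its N-terminal myristoyl group lets it carry lipids to promoters. GATA1 is the main erythroid zinc finger factor and binds many enhancers in erythroid cells.

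The selection used peak presence, so the members were selected on the calls in all 9 libraries and their absence from V-K562 cells is not a result. Where no V-K562 peak was called, the tags of that library are not known to be fewer. The V-K562 libraries held 53862 to 55570 intervals with a mean pileup of 40.3 to 40.9 tags, against 47111 to 51199 intervals and 47.4 to 52.3 tags in the BASP1 lines. Just outside the rule lay 543 regions with a peak in all 6 BASP1 libraries and in 1 V-K562 library, where the V-K562 summit had a median of 26 tags. A further 406 regions had a peak in 5 of the 6 libraries and none in V-K562 cells, 281 of them missing a B-K562 library and 125 missing a G-K562 library. Just inside the rule the median of the mean summit pileup was 32.8 tags, and it was 32.7 tags in the 543 regions with 1 V-K562 peak and 28.5 tags in the 406. The members therefore sit among regions of like height on either side of the rule. Leaving out V-K562 replicate 1 from the rule raised the number of regions to 371, leaving out replicate 2 to 430 and leaving out replicate 3 to 394. Asking for a summit of at least 30 tags in every BASP1 library reduced it to 71.

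The member peaks were small. The mean summit pileup over the 6 BASP1 libraries, in tags at the highest point of the peak, ran from 17.7 to 103.7 with a median of 32.8, while the 29236 regions with a peak in those 6 libraries had a median of 75. Only 52 members (24%) reached a mean of 50 tags, against 70.5% of the regions with a peak in all 6 libraries. The member median per library was 32, 30 and 31 tags in B-K562 and 37, 35 and 36 tags in G-K562 cells, and all regions with a peak in the 6 libraries stood 70 to 71 and 76 to 80 tags high in the same libraries. G-K562 libraries were thus higher by a similar margin in members and in all regions. Members were 273 to 1308 bp wide, with a median of 385 bp. The nearest V-K562 interval was 6623 bp away at the median, and 25 members had one within 500 bp and 42 within 1000 bp.

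The strongest members lay in genes of varied function. The highest stood at PRAME, which codes for a cancer-testis antigen, at chr22:22552709-22552981, with 96, 107 and 100 tags in B-K562 and 129, 95 and 95 tags in G-K562 libraries. The next lay in an intron of RFX1, a winged-helix transcription factor, with 67, 83 and 77 tags in B-K562 and 103, 129 and 137 tags in G-K562 libraries. A region at chr21:9330572-9331285, with no gene of the RNA-seq tables within 5 kb, had 95, 100 and 106 tags against 103, 77 and 105. The B-K562 and G-K562 values overlapped or nearly met at PRAME and on chromosome 21 and stood apart in RFX1. The rest of the 10 highest lay in BCLAF1, a splicing-associated regulator, in NDUFB10, a subunit of respiratory complex I, in RIC8A, a chaperone of G protein alpha subunits, in the neuronal tubulin gene TUBB3 and in SOX12, near LRCOL1, and between genes on chromosome 8. PRAME and SOX12 RNA were above V-K562 levels in both lines with an adjusted p under the threshold, but by less than 2-fold, and PRAME stood at 71144, 70181 and 67810 in V-K562 and 83635, 85437 and 84087 in B-K562 cells. No tested gene of these 10 regions changed 2-fold in either line, and LRCOL1 was below the filter.

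**Figure D1:**
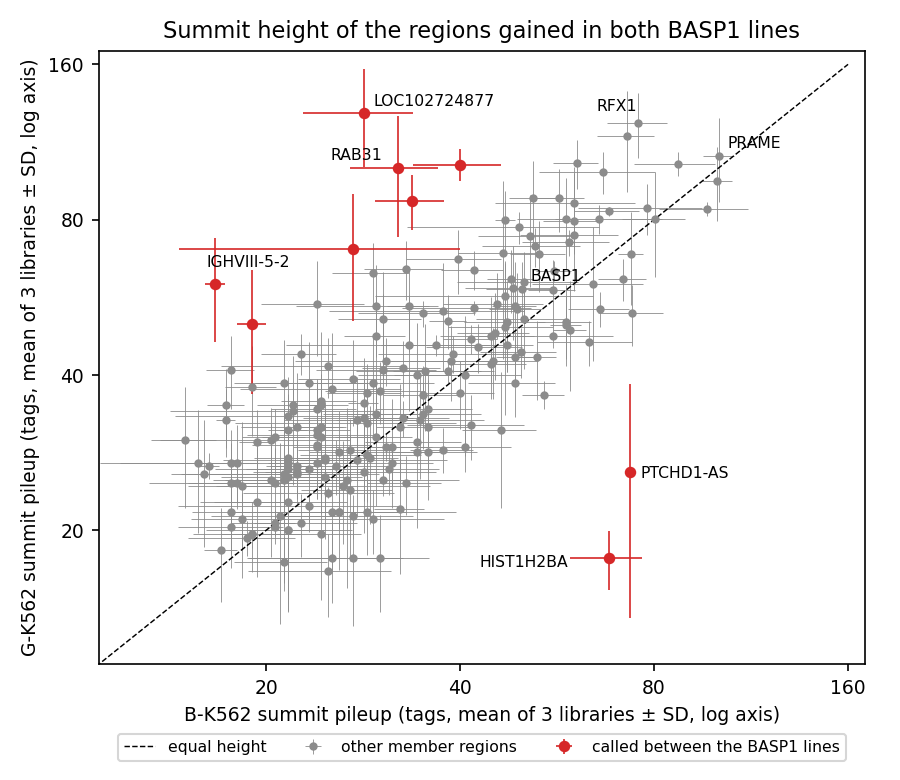
Summit pileup of the 217 member regions in tags, B-K562 on the horizontal and G-K562 on the vertical axis, both logarithmic. Points are means of 3 libraries, bars the SD, and the dashed line marks equal height. Most members follow the line slightly above it, the 9 regions in red were called different between the lines, and HIST1H2BA and PTCHD1-AS lie far below the line.

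A member lay inside BASP1 itself, the introduced gene. It covered chr5:17275124-17275897 with the summit in the coding exon, 57970 bp from the nearest start of any gene in the RNA-seq tables. It had 57, 47 and 46 tags in B-K562 and 63, 50 and 63 tags in G-K562 libraries. BASP1 RNA was 7, 5 and 7 in V-K562 cells, 6849, 6618 and 6189 in B-K562 cells, and, in the other table, 9323, 12538 and 8124 in G-K562 cells. The interval began 93 bp before the coding sequence of GENCODE v44 and ended at its last base, 17275897. The transfected copies carry the coding sequence, so tags and reads from them and from the chromosomal gene cannot be told apart, in this peak or in the RNA. The reference sequence of the 300 bases around the summit, chr5:17275243-17275542 on the plus strand of GRCh38, is shown because it is wholly coding and so also part of the introduced gene.
BASP1: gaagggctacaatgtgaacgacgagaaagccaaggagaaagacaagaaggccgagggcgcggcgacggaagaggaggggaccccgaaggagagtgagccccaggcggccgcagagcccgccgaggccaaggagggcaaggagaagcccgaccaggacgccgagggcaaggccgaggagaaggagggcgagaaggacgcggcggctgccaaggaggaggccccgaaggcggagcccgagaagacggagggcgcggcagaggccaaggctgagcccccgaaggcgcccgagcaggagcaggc

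Members were found in every kind of annotation and more often at gene starts than the regions gained in 1 line alone. Of the 217 summits, 98 (45.2%) lay in introns, 74 (34.1%) between genes, 19 (8.76%) in 5′ UTRs, 14 in noncoding exons, 8 in coding exons and 4 in 3′ UTRs of GENCODE v44. The summit was within 1 kb of a transcription start of the RNA-seq tables in 55 members (25.3%). The same share was 7.59% of the regions gained in B-K562 cells alone, 11.6% of those gained in G-K562 cells alone, 3.08% of those in V-K562 cells alone, 36.6% of the regions open in all 9 libraries and 16.6% of all regions. With the GENCODE transcript starts, which are more numerous, the member share was 40.1%, and those of the other classes in the same order were 20.4%, 23.5%, 11.8%, 50.7% and 28.3%. The order of the classes was thus the same with both sets of starts. These shares are a description, since the classes were cut from the same peak calls. Members were spread over the genome: chromosome 2 held most (19), chromosomes 1 and 17 held 15 each, and 11 (5.07%) lay on the X chromosome, which held 2.46% of all regions. The closest summits lay 15264 and 86704 bp apart, in 1 group of 3 near HAGHL on chromosome 16, and 54752 bp apart inside CAMK4 on chromosome 5.

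**Figure D2:**
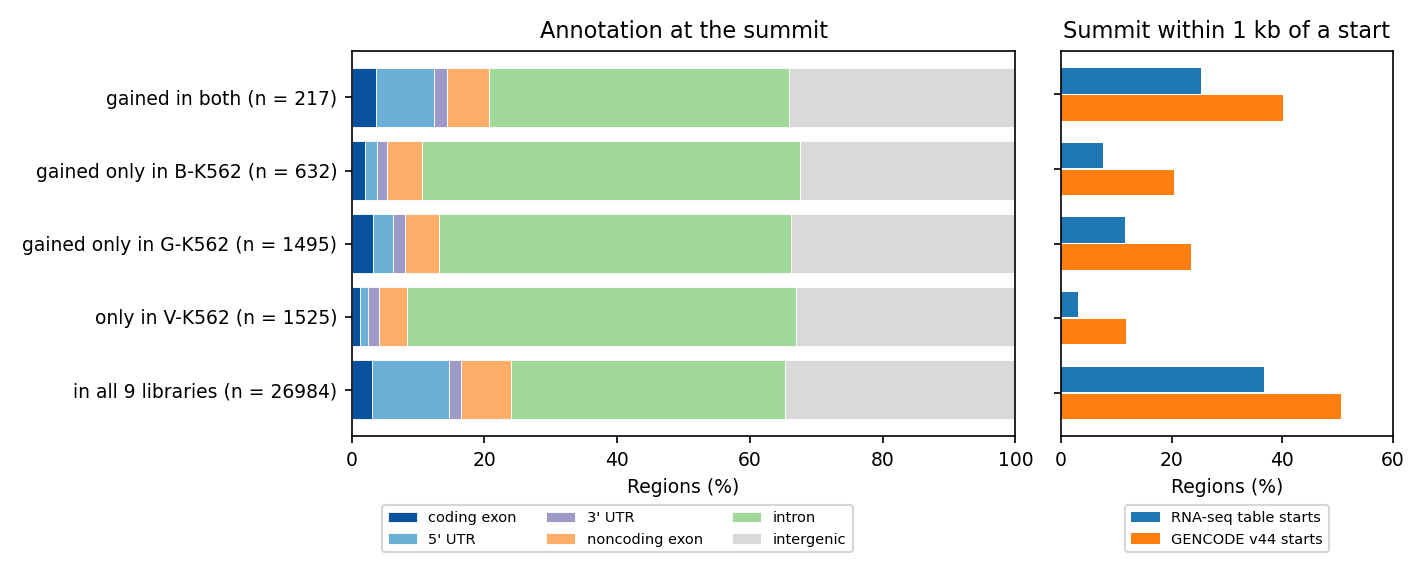
Share of regions, in percent, by the GENCODE v44 feature at the summit (left) and with a summit within 1 kb of a transcription start (right), for members and 4 other classes of region. Members (top) reached 25.3% within 1 kb of an RNA-seq table start, between the 7.59% of regions gained in B-K562 cells alone and the 36.6% of regions open in all 9 libraries.

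The sequence under the members was rich in G and C. In a window of 300 bases centred on the summit, the median GC content was 59.0%, against 51.3% over all regions, 49.3% and 52% in regions gained in B-K562 or G-K562 cells alone and 58.3% in regions open in all 9 libraries. Members within 1 kb of a start had a median of 71.7% and 30 CpG dinucleotides, and the 162 others 55.5% and 7. The letters GGGCGG, bound by SP and KLF factors, were in 86 members (39.6%) and in 24.2% of all regions. The letters GCGNGGGCG, read by WT1 and EGR1, were in 18 members (8.29%) and 3.77% of all regions. Both shares moved with base composition. Among regions within the interquartile range of member GC content, GGGCGG was in 30.3% of members and 33.1% of all regions, and GCGNGGGCG in 2.75% and 2.90%.

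The GATA and AP-1 letters were in a lower share of members than of all regions. AGATAA, the site of GATA factors, was in 18 members (8.29%) and in 23.4% of all regions. It was in 49.7% of the regions gained in B-K562 cells alone, 13.9% of those gained in G-K562 cells alone and 16.3% of the regions open in all 9 libraries. In a window of 200 bases the share was 7.37% of members and 8.23% of the regions gained in G-K562 cells alone. TGANTCA, the site of AP-1, was in 17 members (7.83%) and 20.1% of all regions, and TTCNNNGAA, the site of STAT factors, in 7 (3.23%) and 8.70%. Among regions of the members' GC range, AGATAA was in 6.42% of members and 13.1% of all regions, and the AP-1 letters in 7.34% and 15.7%, so these lower shares were also seen at matched GC content. The STAT letters were in 5.5% of members and 6.71% of all regions there, a small difference that rests on 6 members. The core of the CTCF site went the other way and was in 17 members (7.83%), 3.30% of all regions, 1.11% of the regions gained in B-K562 cells alone and 2.74% of those in G-K562 cells alone. Within the GC range it was in 10.1% of members and 4.83% of all regions. Motifs were searched on both strands and a match of letters is not a bound site. Counts of 17 or 18 regions are small, and no test was run on them.

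**Figure D3:**
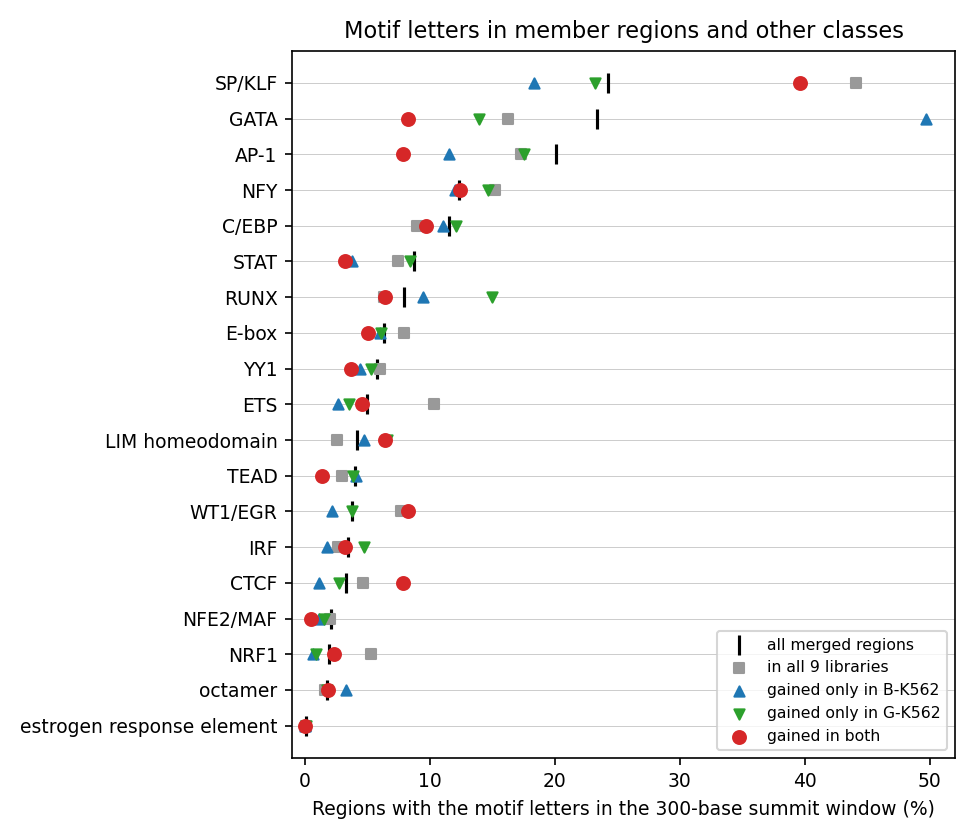
Share of regions, in percent, whose 300-base summit window holds the letters of each of 19 motifs on either strand, for members (red), all regions (black bars) and 3 other classes. Members stand to the right of all regions for SP/KLF, WT1/EGR and CTCF and to the left for GATA, AP-1 and STAT.

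The CTCF letters are shown for 9 of the 11 members that hold them and have a gene within 5 kb, since their flanks differ while the core is shared. Each line gives 40 bases of GRCh38 read along the motif strand, with the searched letters in capitals.
BIN1 intron, chr2:127050313-127050352, minus strand: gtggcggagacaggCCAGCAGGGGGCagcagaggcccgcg
ANKRD44 intron, chr2:197012215-197012254, plus strand: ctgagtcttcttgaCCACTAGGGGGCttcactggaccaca
GOLM1 intron, chr9:86035054-86035093, plus strand: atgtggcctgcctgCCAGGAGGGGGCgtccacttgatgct
CAPN1 intron, chr11:65204925-65204964, plus strand: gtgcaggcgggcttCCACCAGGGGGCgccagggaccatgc
near IGHVIII-5-2, chr14:106045392-106045431, minus strand: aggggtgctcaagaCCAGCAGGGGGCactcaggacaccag
near IGHVIII-38-1, chr14:106417616-106417655, minus strand: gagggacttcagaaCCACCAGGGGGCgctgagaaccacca
near C15orf48, chr15:45430440-45430479, plus strand: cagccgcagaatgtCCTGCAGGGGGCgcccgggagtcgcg
RPH3AL intron, chr17:309407-309446, minus strand: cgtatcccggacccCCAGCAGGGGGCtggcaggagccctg
SLC19A1 intron, chr21:45555063-45555102, plus strand: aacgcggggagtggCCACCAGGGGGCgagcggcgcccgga
Both immunoglobulin heavy chain members lay beside V gene segments listed as pseudogenes, and the one near IGHVIII-38-1 held the letters 4 times. Its window, chr14:106417547-106417846 on the plus strand, is shown for those repeats, with CTCF letters in capitals.
IGHVIII-38-1: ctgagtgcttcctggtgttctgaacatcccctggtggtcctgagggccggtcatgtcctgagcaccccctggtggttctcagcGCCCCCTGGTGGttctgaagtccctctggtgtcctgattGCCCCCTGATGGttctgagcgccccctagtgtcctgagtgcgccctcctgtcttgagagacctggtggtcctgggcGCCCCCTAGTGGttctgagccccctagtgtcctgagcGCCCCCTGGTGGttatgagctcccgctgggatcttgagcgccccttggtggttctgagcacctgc
That region had 18, 18 and 16 tags in B-K562 and 31, 42 and 32 tags in G-K562 libraries. The region near IGHVIII-5-2 had 16, 17 and 17 tags in B-K562 and 63, 45 and 72 tags in G-K562 libraries, and its G-K562 libraries all stood above its B-K562 libraries. RNA of IGHVIII-5-2 was listed at 0 in all libraries.

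The difference between the BASP1 lines was not used by the rule and was tested. Summit pileups were scaled by a trimmed mean and fitted in limma over the 29236 regions with a peak in all 6 libraries. Of the 217 members, 7 (3.23%) stood higher in the G-K562 libraries and 2 (0.922%) were lower, at an adjusted p of at most 0.05 and a difference of at least 2-fold. The background was 2.71% higher and 6.0% lower, so the higher share was close to it and the lower share was below it. Every region tested had to keep a peak in all 6 libraries, and the median summit was 32.8 tags in members against 75 in all of them. A low peak has little room to fall 2-fold and still be called, which limits the lower share. None of the shares given here was compared at matched height. Without the 2-fold criterion, 24 members (11.1%) were higher and 19 (8.76%) lower, against 16.7% and 16.9% of all regions. The median log2 difference of the members was -0.02 and that of all regions tested was 0.01. Without the trimmed-mean scaling both medians were higher, at 0.19 and 0.23, so the members' median changed sign while it stayed close to that of all regions. In scaled values all G-K562 libraries exceeded all B-K562 libraries in 32 members (14.7%) and fell below them in 37 (17.1%), against a background of 22% and 21.4%. Without G-K562 replicate 1 the number lower was 4 instead of 2, and with the mean pileup over the interval in place of the summit the number higher was 4 instead of 7.

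The largest fall lay at the start of HIST1H2BA, which codes for a testis-specific histone H2B, at chr6:25726215-25727254. It had 78, 62 and 64 tags in B-K562 and 15, 19 and 19 tags in G-K562 libraries, a log2 difference of -2.10 ± 0.23 (SE, n = 3 per line, limma adjusted p = 6.59e-12). HIST1H2BA RNA stayed below the filter, with 3, 0 and 1 in V-K562, 9, 4 and 6 in B-K562 and 0, 1 and 0 in G-K562 cells. The other fall lay 153 bp from a start of PTCHD1-AS, a long noncoding RNA on the X chromosome, where V-K562 cells had no interval within 660086 bp. It had 73, 74 and 73 tags in B-K562 and 40, 16 and 22 tags in G-K562 libraries (log2 difference -1.77 ± 0.23, SE, limma adjusted p = 2.88e-09), so its G-K562 libraries spread far more than its B-K562 libraries. PTCHD1-AS RNA was 0 or 1 in every library.

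The largest rise lay in an intron of the uncharacterised LOC102724877, at chr3:194075821-194076211. It had 22, 32 and 31 tags in B-K562 and 138, 98 and 151 tags in G-K562 libraries, a log2 difference of 1.93 ± 0.20 (SE, n = 3 per line, limma adjusted p = 1.54e-12). The next was the region near IGHVIII-5-2 (1.55 ± 0.24, limma adjusted p = 1.27e-07). The region in an intron of RAB31, a small GTPase of vesicle transport, rose from 37, 27 and 32 to 115, 70 and 117 tags (1.38 ± 0.21, limma adjusted p = 9.79e-08). In each of these 3 regions every G-K562 library exceeded every B-K562 library. RAB31 RNA was 3576, 3759 and 3337 in V-K562, 3952, 3972 and 3877 in B-K562 and 8003, 7363 and 7743 in G-K562 cells, and rose in G-K562 compared to V-K562 cells (log2 fold change 1.09 ± 0.06, limma adjusted p = 3.91e-08).
The windows of the region that rose most and of the region that fell in PTCHD1-AS are shown for their contrast. The first is chr3:194075851-194076150 and the second chrX:22999659-22999958, both on the plus strand, and neither holds SP/KLF, WT1/EGR or CTCF letters.
LOC102724877: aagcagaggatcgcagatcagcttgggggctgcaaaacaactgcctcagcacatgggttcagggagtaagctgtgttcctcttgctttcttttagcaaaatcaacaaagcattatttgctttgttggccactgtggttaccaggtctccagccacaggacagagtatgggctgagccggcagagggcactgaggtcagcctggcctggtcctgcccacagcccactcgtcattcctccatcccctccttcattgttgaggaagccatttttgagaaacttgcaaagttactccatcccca
PTCHD1-AS: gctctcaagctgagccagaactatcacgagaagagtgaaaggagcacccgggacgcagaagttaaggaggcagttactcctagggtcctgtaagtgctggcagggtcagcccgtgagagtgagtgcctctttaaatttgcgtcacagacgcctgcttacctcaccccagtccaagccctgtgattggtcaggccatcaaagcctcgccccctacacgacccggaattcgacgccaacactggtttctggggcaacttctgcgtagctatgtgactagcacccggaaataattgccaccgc

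Nearby genes were then read in the RNA-seq libraries, which are separate from the ATAC-seq libraries. RNA values are the deposited normalised read counts, and a gene was called at an adjusted p of at most 0.05 and a change of at least 2-fold on the log2(value + 1) scale. In bulk cultures, fewer cells of a kind and less RNA per cell cannot be told apart. A gene lay within 5 kb of the summit for 153 members, 152 genes in all. In B-K562 compared to V-K562 cells 117 of these passed the filter on low values, of which 12 (10.3%) rose and 10 (8.55%) fell, against 6.46% and 14.1% of all 14958 genes tested. In G-K562 compared to V-K562 cells 119 passed, of which 21 (17.6%) rose and 8 (6.72%) fell, against 8.81% and 10.3% of all 15271 genes tested. The genes that rose include BASP1, the introduced gene. Without it, 11 of 116 (9.48%) rose in B-K562 and 20 of 118 (16.9%) in G-K562 cells. The share that rose was thus above the background, and the share that fell below it, in each comparison, and both comparisons share the V-K562 libraries. Their median log2 fold change came to 0.15 for B-K562 and 0.19 for G-K562 cells, against 0.01 and 0.00 over all genes tested. Without the 2-fold criterion 53 rose and 33 fell in B-K562 cells (45.3% and 28.2%, background 38.6% and 37.2%), and 55 rose and 28 fell in G-K562 cells (46.2% and 23.5%, background 33.5% and 33.3%). Between the BASP1 lines 121 were tested, of which 21 (17.4%) were higher and 13 (10.7%) lower in G-K562 cells, equal or close to the background of 17.4% and 12.5%. By the adjusted p alone 47 (38.8%) were higher and 46 (38%) lower there, against 38.1% and 40.5%.

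The tested genes were split by whether their member lay within 1 kb of a start in the RNA-seq tables, and most lay farther off. That start could belong to another gene than the one assigned to the member. Among genes whose member lay within 1 kb of a start, 1 of 39 tested rose and 2 fell in B-K562 cells, and 6 of 40 rose and 1 fell in G-K562 cells. Among genes whose member lay farther off, 11 of 78 rose and 8 fell in B-K562 cells, and 15 of 79 rose and 7 fell in G-K562 cells. As shares, the genes with a member farther off were 14.1% higher and 10.3% lower in B-K562 and 19.0% higher and 8.86% lower in G-K562 cells. Those with a member at a start stood at 2.56%, 5.13%, 15.0% and 2.5% in the same order, and the difference between these shares was not tested. Over all genes tested the shares were 6.46%, 14.1%, 8.81% and 10.3% in that order. In B-K562 cells the share that rose was thus above the background only for genes with a member farther off. Of the 55 genes with a member at a start, 13 (23.6%) stayed below 10 in every library and 2 were listed at 0 throughout, against 42.4% below 10 over all genes.

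Among the genes near members, 7 were called in the same direction against V-K562 cells in both lines, BASP1 among them. The matching share over all genes is not given here, and both comparisons share the V-K562 libraries. The 7 genes are therefore a description and not a feature shown to be particular to the members. MGAT4A, which codes for a Golgi glycosyltransferase that branches N-glycans, fell and had the member at its start, 106 bp from it at chr2:98730685-98731491. Its RNA was 177, 182 and 171 in V-K562 and 20, 24 and 30 in B-K562 cells (log2 fold change -2.81 ± 0.17, SE, n = 3 per line, limma adjusted p = 3.71e-09), and 180, 185 and 174 in V-K562 and 30, 24 and 34 in G-K562 cells in the other table (-2.59 ± 0.16, limma adjusted p = 9.75e-08). The peak had 30, 35 and 42 tags in B-K562 and 22, 39 and 34 tags in G-K562 libraries, so a peak was gained where the RNA fell. MARVELD1, a membrane protein of the MARVEL family, rose and had its member 404 bp from the start in the coding exon, at chr10:97713605-97714394. MARVELD1 RNA was 516, 505 and 470 in V-K562 and 1072, 1041 and 939 in B-K562 cells (1.03 ± 0.07, limma adjusted p = 1.32e-08), and 524, 513 and 480 against 1143, 1007 and 1040 in G-K562 cells (1.07 ± 0.08, limma adjusted p = 2.78e-07). Its peak had 47, 26 and 27 tags in B-K562 and 44, 35 and 58 tags in G-K562 libraries.
These were the members within 1 kb of the start of a gene that changed the same way in both lines, and their sequences are shown on the plus strand, without UTR bases: chr2:98731133-98731382 for MGAT4A, upstream of a gene on the minus strand, and chr10:97713963-97714262 for MARVELD1. Capitals mark SP/KLF and WT1/EGR letters, on either strand.
MGAT4A: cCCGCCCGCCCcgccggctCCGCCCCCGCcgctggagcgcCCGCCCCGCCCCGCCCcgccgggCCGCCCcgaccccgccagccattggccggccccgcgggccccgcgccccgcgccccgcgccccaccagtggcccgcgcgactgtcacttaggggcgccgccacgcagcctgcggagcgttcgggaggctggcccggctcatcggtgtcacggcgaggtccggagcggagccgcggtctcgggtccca
MARVELD1: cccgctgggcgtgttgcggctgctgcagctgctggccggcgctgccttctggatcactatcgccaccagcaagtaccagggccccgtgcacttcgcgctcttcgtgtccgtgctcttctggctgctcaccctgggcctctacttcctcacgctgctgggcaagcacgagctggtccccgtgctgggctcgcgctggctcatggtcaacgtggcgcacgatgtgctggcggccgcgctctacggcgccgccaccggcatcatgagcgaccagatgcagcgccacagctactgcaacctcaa
The MGAT4A stretch held 7 SP/KLF matches and 1 WT1/EGR match, and the MARVELD1 stretch held none.

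The other genes called in both lines had their member in an intron. ITGA2B, the alpha subunit of the platelet fibrinogen receptor and a megakaryocyte marker, fell from 4217, 4273 and 4536 to 1583, 1828 and 1855 in B-K562 cells (-1.31 ± 0.06, limma adjusted p = 4.89e-10). In the G-K562 table it fell from 4281, 4339 and 4628 to 1057, 832 and 682 (-2.39 ± 0.12, limma adjusted p = 2.27e-08). The ITGA2B member had 36, 25 and 31 tags in B-K562 and 27, 30 and 30 tags in G-K562 libraries. DGKG, a diacylglycerol kinase, fell at low values, from 37, 28 and 37 to 12, 20 and 17 in B-K562 cells (-1.03 ± 0.25, limma adjusted p = 0.00225) and from 37, 28 and 38 to 11, 10 and 12 in G-K562 cells (-1.55 ± 0.24, limma adjusted p = 0.000155). WWC3, a scaffold of Hippo signaling, rose from 182, 161 and 197 to 530, 542 and 529 in B-K562 cells (1.57 ± 0.09, limma adjusted p = 2.58e-09) and from 185, 164 and 201 to 397, 357 and 370 in G-K562 cells (1.03 ± 0.10, limma adjusted p = 4.92e-06). The noncoding LINC00689 rose from 203, 244 and 227 to 515, 513 and 492 in B-K562 cells (1.17 ± 0.09, limma adjusted p = 2.86e-08) and from 206, 247 and 232 to 687, 563 and 632 in G-K562 cells (1.45 ± 0.10, limma adjusted p = 2.70e-07). In none of these genes did the V-K562 and BASP1 libraries overlap. For these and the other called genes and regions, a lack of overlap is a description, as the call was made on the same values. The 2-fold call of MARVELD1 and of DGKG in B-K562 cells, and of WWC3 in G-K562 cells, was lost when single libraries were left out. MARVELD1 came to 0.99 without V-K562 replicate 3 or B-K562 replicate 1. DGKG came to -0.97 without V-K562 replicate 1 or 3 and to -0.84 without B-K562 replicate 1, and WWC3 to 0.95 without V-K562 replicate 2 and 0.99 without G-K562 replicate 1.

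**Figure D4:**
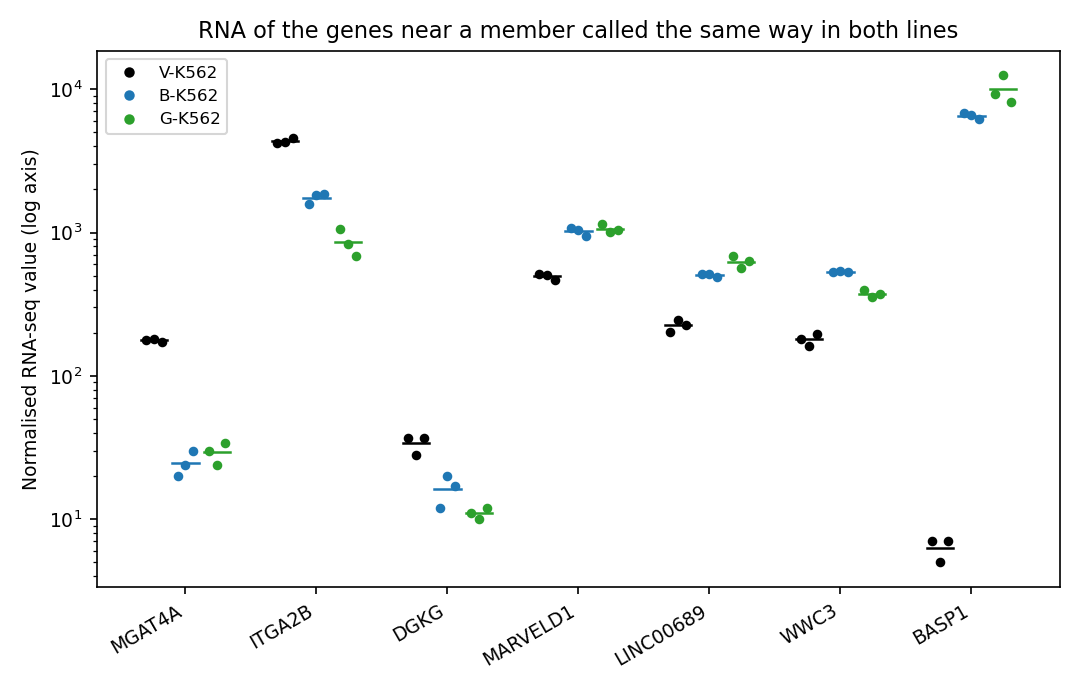
Normalised RNA-seq values, on a logarithmic axis, of the 7 genes near a member that were called in the same direction in both BASP1 lines, where points are libraries and bars the means, with V-K562 and B-K562 values from 1 table and G-K562 values from the other. MGAT4A, ITGA2B and DGKG stand lower and the other 4 genes higher than in V-K562 cells, with no overlap.

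Genes that rose in B-K562 cells included a chaperone, a transporter and signaling proteins. HSPA8, the constitutive HSC70 chaperone, rose from 29634, 32582 and 30455 to 102186, 102361 and 98986 (1.71 ± 0.05, limma adjusted p = 1.69e-11), and it has processed pseudogenes that can share its reads. SLC19A1, the reduced folate carrier, rose from 894, 955 and 787 to 3438, 3429 and 3449 (1.97 ± 0.06, limma adjusted p = 2.18e-11), and its intronic member carried CTCF letters. ANKRD44, a regulatory subunit of protein phosphatase 6, rose from 43, 40 and 52 to 179, 175 and 200 (2.02 ± 0.14, limma adjusted p = 1.74e-08) and was 34, 45 and 37 in G-K562 cells. In all 3 the B-K562 libraries lay well above the controls. MYHAS, an antisense transcript of the myosin heavy chain cluster, rose from 10, 6 and 8 to 49, 52 and 56 (2.59 ± 0.25, limma adjusted p = 5.41e-07) and was 0, 0 and 1 in G-K562 cells, but the strand setting of the counting is not given in the sources used here and reads of the opposite strand could enter. The ubiquitin-conjugating enzyme UBE2G1 (1.05 ± 0.06) and the muscle kinase MYLK2 (1.43 ± 0.28) also rose.

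Among the genes that fell in B-K562 cells were GOLM1 and SORCS1, which rose in G-K562 cells. GOLM1, a Golgi membrane protein, fell from 21, 20 and 20 to 12, 5 and 4 (-1.55 ± 0.38, limma adjusted p = 0.00199) and rose from 22, 20 and 21 to 70, 79 and 97 in G-K562 cells (1.90 ± 0.19, limma adjusted p = 3.97e-06). SORCS1, a sorting receptor, fell from 827, 891 and 1094 to 400, 420 and 439 (-1.15 ± 0.09, limma adjusted p = 7.32e-08) and rose from 840, 905 and 1117 to 3601, 2690 and 3877 in G-K562 cells (1.82 ± 0.13, limma adjusted p = 3.25e-07). Both genes moved in opposite directions in the BASP1 lines, and the difference between G-K562 and B-K562 cells passed the test, at 3.47 for GOLM1 and 2.97 for SORCS1 on the log2 scale. The GOLM1 member had 19, 22 and 21 tags in B-K562 and 20, 22 and 20 tags in G-K562 libraries, and the SORCS1 member 17, 17 and 18 against 36, 27 and 35. SOCS1, an inhibitor of cytokine signaling, fell from 127, 113 and 147 to 59, 38 and 49 in B-K562 cells (-1.40 ± 0.17, limma adjusted p = 5.86e-06) and was 199, 196 and 207 in G-K562 cells. EEF1A2 (-1.30 ± 0.07), a translation elongation factor, STARD9 (-1.33 ± 0.07), a mitotic kinesin, RPH3AL (-1.19 ± 0.17), an exocytosis effector, and CPAMD8 (-1.02 ± 0.17) fell as well, and CPAMD8 came below 2-fold without V-K562 replicate 3 or B-K562 replicate 1 (-0.98 and -0.81).

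Genes that rose in G-K562 cells included a receptor kinase, a homeobox gene and a sodium channel subunit. ALK, a receptor tyrosine kinase, was listed at 0 in all V-K562 libraries and at 19, 17 and 15 in G-K562 cells, at least 5.67-fold higher than a floor of 3 per library, and its intronic member lay 110539 bp from the start. HOXD8, a homeobox factor, rose from 10, 5 and 8 to 32, 50 and 53 (2.42 ± 0.31, limma adjusted p = 2.92e-05), was 1, 4 and 2 in B-K562 cells, and had its member in the coding exon with 22, 20 and 26 tags in B-K562 and 40, 44 and 48 tags in G-K562 libraries. MAPK11, the p38-beta kinase, rose from 456, 412 and 456 to 1689, 1633 and 1870 (1.97 ± 0.08, limma adjusted p = 2.79e-09). The G-K562 libraries of these genes did not overlap the controls. The noncoding RNAs PCAT14 (2.90 ± 0.27), LINC01094 (2.06 ± 0.11) and LOC100130370 (1.83 ± 0.25) and the sodium channel subunit SCN3B (1.91 ± 0.42, from 3, 1 and 3 to 10, 13 and 10) also rose. LOC100130370 had its member 595 bp from the start, with 38, 35 and 47 tags in B-K562 and 101, 110 and 96 tags in G-K562 libraries. RNA of LOC100130370 was 10, 13 and 9 in B-K562 and 49, 44 and 49 in G-K562 cells, so peak and RNA were both higher in G-K562 cells.

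Of the genes that fell in G-K562 cells, ADGRD1, an adhesion G protein-coupled receptor, went from 937, 1007 and 1315 to 302, 288 and 290 (-1.87 ± 0.11, limma adjusted p = 7.82e-08) and was 937, 981 and 1105 in B-K562 cells. EGFL7, a secreted endothelial factor and the host of a microRNA, went from 4258, 3897 and 3461 to 1625, 1611 and 1608 (-1.26 ± 0.07, limma adjusted p = 5.75e-08). BIN1, a membrane-bending adaptor that also binds MYC, went from 136, 155 and 187 to 43, 54 and 50 (-1.67 ± 0.16, limma adjusted p = 3.04e-06). In all 3 genes the member lay in an intron and the G-K562 libraries did not overlap the V-K562 libraries. LINC01623 (-1.25 ± 0.20) and the mitochondrial nucleotidase NT5M (-1.02 ± 0.10) fell as well, and NT5M came below 2-fold without G-K562 replicate 3 (-0.94).

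Height and RNA could be set side by side between the BASP1 lines, a contrast the rule left unused. Over the 121 members with a tested gene, the log2 difference of the summit and that of the RNA (G-K562 against B-K562) had a Pearson r of 0.30 and a Spearman rho of 0.30, with the same sign in 72. Over the 40 with a summit within 1 kb of a start in the RNA-seq tables r was 0.47 and rho 0.34, and over the other 81 r was 0.23 and rho 0.26. The points share the same 3 libraries per line and assay, so these values are a description. LOC100130370 was higher in G-K562 cells in both measures, and HOXD8 and EEF1A2 were too, with a peak difference below 2-fold (0.72 and 0.73), while MYHAS differed in RNA by -5.43 (log2) with a peak of like height.

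**Figure D5:**
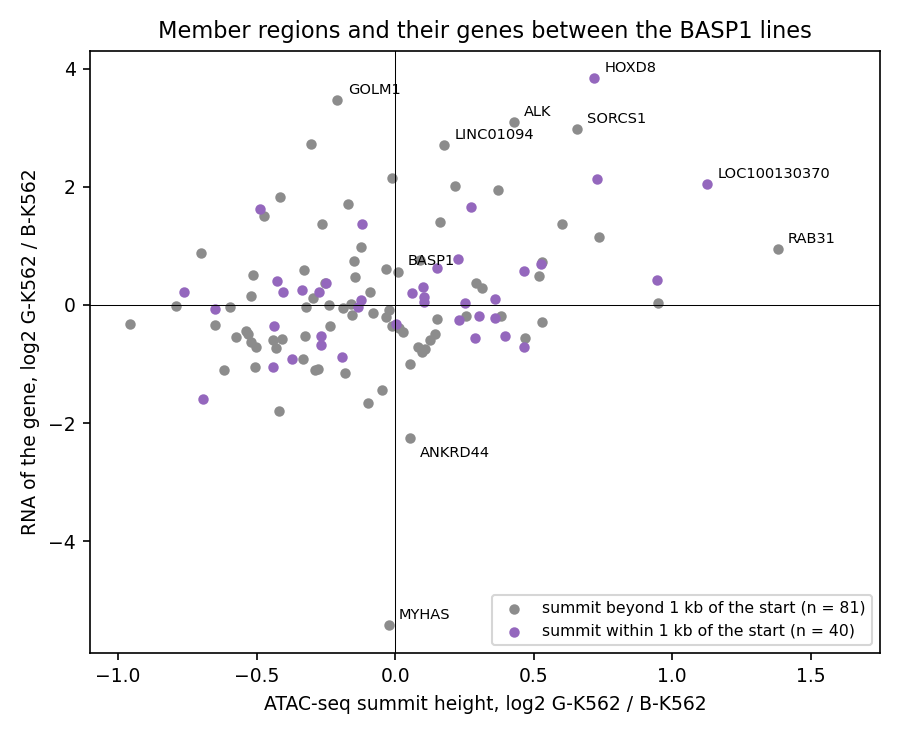
Log2 difference between G-K562 and B-K562 cells in ATAC-seq summit height (horizontal) and in RNA of the nearest gene within 5 kb (vertical) for 121 members. Purple points have the summit within 1 kb of a start in the RNA-seq tables, which may be that of another gene. LOC100130370, RAB31 and HOXD8 lie at the upper right, and GOLM1 and MYHAS differ in RNA at a summit difference near 0.

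RNA of the factors whose letters were searched was read against the same background. Of 66 listed factors, 61 were tested in B-K562 compared to V-K562 cells, of which 2 rose (3.28%) and 7 fell (11.5%), against 6.46% and 14.1% of all genes, and their median log2 change was 0.14. In G-K562 cells 62 were tested, of which 10 rose (16.1%) and 5 fell (8.06%), against 8.81% and 10.3%, and their median was 0.05. Apart from CTCF, the genes named next are those called. ETS1 fell in both lines, from 782, 831 and 1010 to 119, 111 and 114 in B-K562 cells (-2.91 ± 0.10, limma adjusted p = 2.72e-11) and, in the other table, from 794, 844 and 1030 to 184, 129 and 237 in G-K562 cells (-2.31 ± 0.18). RUNX3 fell in both (-4.46 ± 0.49 and -2.68 ± 0.24), POU3F2 rose in both (3.44 ± 0.22 and 2.29 ± 0.26), and LHX3 fell in B-K562 and rose in G-K562 cells (-3.04 ± 0.40 and 2.0 ± 0.19). The estrogen receptor gene ESR1 rose in B-K562 cells (4.94 ± 0.21), and CEBPA, CEBPB, CEBPD and CEBPG fell there (-1.27 ± 0.17, -1.15 ± 0.08, -1.32 ± 0.12 and -1.07 ± 0.04). In G-K562 cells the AP-1 genes FOS (1.65 ± 0.37), FOSB (2.39 ± 0.33) and FOSL2 (1.28 ± 0.11) rose, with NFE2L1 (1.06 ± 0.06), IRF1 (1.04 ± 0.07), ERG (2.08 ± 0.36) and TEAD2 (1.28 ± 0.07), and MYC (-1.48 ± 0.06), KLF1 (-1.48 ± 0.09) and CEBPE (-1.31 ± 0.34) fell. CEBPE stood at 15, 17 and 20 in V-K562 and 5, 10 and 5 in G-K562 cells, and its change came to -0.96 with a pseudocount of 5. IRF1 came to 0.99 without G-K562 replicate 3. CTCF, whose letters were more frequent in members, was not called. It rose from 1531, 1510 and 1486 to 2975, 3055 and 3005 in B-K562 cells (0.997 ± 0.05, limma adjusted p = 3.87e-10), just below 2-fold. In G-K562 cells CTCF rose from 1554, 1533 and 1516 to 2321, 2178 and 2333 (0.57 ± 0.06, limma adjusted p = 4.71e-06). Whether these levels bear on the members was not tested. WT1 was 1286, 1190 and 1153 in V-K562 and 3218, 2906 and 3297 in G-K562 cells (1.37 ± 0.07, limma adjusted p = 1.81e-08), and 1348, 1369 and 1383 in B-K562 cells.
The WT1 letters are shown for the members at HOXD8, described above, and at CAMK4, a calcium-dependent kinase, each read along the motif strand.
HOXD8, chr2:176130543-176130579, minus strand: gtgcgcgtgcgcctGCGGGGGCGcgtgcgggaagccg
CAMK4, chr5:111224323-111224359, plus strand: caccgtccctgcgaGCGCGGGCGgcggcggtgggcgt
The GATA letters in the ALK, SORCS1, MYLK2 and WWC3 introns are shown with the core in capitals, as the exceptions among members that mostly lacked it.
ALK, chr2:29811131-29811164, plus strand: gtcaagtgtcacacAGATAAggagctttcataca
SORCS1, chr10:106819764-106819797, plus strand: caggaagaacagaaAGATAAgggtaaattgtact
MYLK2, chr20:31833438-31833471, minus strand: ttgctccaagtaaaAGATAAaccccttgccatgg
WWC3, chrX:10134070-10134103, plus strand: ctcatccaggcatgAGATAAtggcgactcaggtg

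RNA of erythroid genes was present in every library but stood at different levels in the lines. GATA1 was 5347 to 9548, TAL1 3886 to 8331 and the embryonic globin HBE1 20187 to 66612 over all libraries. The fetal globin HBG1, whose reads can be shared with its near-identical copy HBG2, was 9830, 8528 and 7350 in V-K562 and 14793, 13059 and 13381 in B-K562 cells, a log2 difference of 0.69 that was below 2-fold. In the other table it went from 9980, 8659 and 7499 in V-K562 to 1145, 1439 and 1055 in G-K562 cells (-2.85 ± 0.12, limma adjusted p = 4.13e-09). HBG2 stood at 0.68 and -2.81 and the erythroid factor KLF1 at 0.88 and -1.48 in B-K562 and G-K562 cells, each below 2-fold in B-K562 and called lower in G-K562 cells. The part of these levels in the results on members and their genes was not tested. Of the lymphoid markers, CD79A stayed at 0 to 8 and CD3E at 12 to 29. The epithelial marker KRT5 was at 143 in V-K562 replicate 1 (145 in the other table) and at 0 or 1 in every other library. EPCAM, also epithelial, was at 1129 to 1731, and whether they bear on the regions was not tested. Regions open in all 9 libraries within 50 kb of a member (552) had a median log2 difference to V-K562 cells of 0.10 in B-K562 and 0.11 in G-K562 cells, against 0.03 and 0.02 over all regions open in all 9 libraries.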

How the data were processed

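RNA-seq and ATAC-seq libraries, 3 per line and assay, were used. The authors deposited RNA values from STAR, Subread and DESeq2 on GRCh38 as a signal, read counts divided by size factors, in 2 tables that share the V-K562 libraries. ATAC-seq reads were aligned with BWA-MEM, libraries were down-sampled to equal tags, and the deposited MACS2 intervals give a signal, the tag pileup. Deposited fold changes and p-values were not used. Because the values are not raw counts, limma 3.58.1 (R 4.3.3) was fitted to log2(value + 1), for genes with at least 10 in 3 libraries, with Benjamini-Hochberg adjustment over all features. This scale understates changes of low genes. B-K562 values were multiplied by 1.017, the ratio of the V-K562 columns, before G-K562 was compared to B-K562 cells. ATAC-seq summits were scaled by a trimmed mean. The fits were tested on simulated data. The p-values measure the spread between culture replicates. Named were BASP1, WT1, up to 10 largest rises and falls per line among genes within 5 kb of a member, called listed factors, the 10 highest members, members at starts of genes called alike in both lines, up to 3 members each way between the BASP1 lines, and their genes. Some items are not reported here. Members and lists were chosen with earlier results of these data known.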

Additional observations from a re-analysis of the deposited data

Results flagged for a closer look

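Of the 66 genes near a member or in the factor list that were named, 39 differed between the G-K562 and B-K562 cells in the test of that difference itself, 26 higher and 13 lower in G-K562 cells. Most of these genes were named for a called change in one of the lines, so that share is set by the choice. Of all 121 tested genes near members, 21 (17.4%) were higher and 13 (10.7%) lower, against 17.4% and 12.5% of all genes. Both lines were compared in 1 fit, and the values are log2 differences of G-K562 against B-K562 RNA. Higher in G-K562 cells were LHX3 (5.03), HOXD8 (3.84), GOLM1 (3.47), ALK (3.10), SORCS1 (2.97), PCAT14 (2.73), LINC01094 (2.70), STARD9 (2.15), EEF1A2 (2.14), LOC100130370 (2.04), ERG (2.03), SOCS1 (2.02), SCN3B (1.84), RUNX3 (1.79), MAPK11 (1.71), IRF1 (1.57), FOSB (1.51), CPAMD8 (1.51), NFE2L1 (1.5), CEBPA (1.47), RPH3AL (1.41), CEBPG (1.39), FOSL2 (1.28), CEBPB (1.27), WT1 (1.17), TEAD2 (1.10). Among those lower in G-K562 cells were MYHAS (-5.43), ESR1 (-4.98), KLF1 (-2.36), ANKRD44 (-2.26), ADGRD1 (-1.80), SLC19A1 (-1.66), CEBPE (-1.56), MYC (-1.54), POU3F2 (-1.11), ITGA2B (-1.08), HSPA8 (-1.06), MYLK2 (-1.0). ESR1 and ANKRD44 had risen in B-K562 cells and were not called in G-K562 cells, and MYHAS had risen in B-K562 cells and was below the filter in G-K562 compared to V-K562 cells. GOLM1, SORCS1 and LHX3 fell in B-K562 and rose in G-K562 cells. The 2-fold calls of MYLK2 and ITGA2B were lost without G-K562 replicate 3, and that of MYLK2 also without B-K562 replicate 2, with trimmed-mean rescaling (-0.98) and with a pseudocount of 5 (-0.89). The call of RUNX3, at 4, 0 and 2 in B-K562 and 7, 7 and 9 in G-K562 cells, was lost with a pseudocount of 5 (0.89).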

How the results depend on the processing

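The number of member regions fell to 71 with a summit of at least 30 tags and ran from 253 to 430 with single libraries left out, at 371, 430 and 394 without V-K562 replicate 1, 2 and 3. With the adjusted p alone, genes near members numbered 53 higher and 33 lower in B-K562, 55 and 28 in G-K562, and 47 and 46 between the lines, and members 24 and 19 in summit height. The mean pileup over the interval gave 4 higher. Leaving out single libraries gave 10 to 13 higher and 8 to 11 lower genes in B-K562, 20 to 23 and 8 to 9 in G-K562, 21 and 11 to 14 between the lines, and 6 to 8 and 2 to 4 in summit height. GENCODE starts gave 40.1%. The GC range of the members gave 30.3% with SP/KLF and 2.75% with WT1/EGR letters, an alternative chosen after seeing the data. Of the remaining values, 130 summary values and 1351 single-gene or single-region values kept their side of the threshold or stayed within their spread, and in 20 cases a single gene lost its 2-fold call. No gene or region changed direction. Of the medians, that of the members in summit height changed sign from -0.02 to 0.19 without scaling, where all regions tested stood at 0.23. The median of genes near members between the lines changed from -0.02 to 0.01 without the filter on low values, with trimmed-mean rescaling and with a window of 50 kb.

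The replicate numbers do not pair the samples. Deviations of same-numbered libraries correlated at 0.07, 0.04 and 0.00 for B-K562 and V-K562, at -0.10, -0.06 and 0.15 for G-K562 and V-K562, at -0.05, -0.08 and -0.02 for G-K562 and B-K562, and at 0.11, 0.05 and 0.01 in ATAC-seq. With a replicate block, genes near members numbered 13 higher and 10 lower in B-K562, 21 and 8 in G-K562, and 21 and 13 between the lines, and members 7 and 2 in summit height.

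At least 1 library stood at 20 tags or less in 84 members, where counts limit the precision. The cause of each change was not tested.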
